A study of Mus musculus with 503 samples.

Results

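Cells around the blood vessels of the mouse spinal cord were sorted one by one, and the cells described here carried green fluorescence and no red fluorescence (EGFP+; tdTomato-). They were compared between uninjured cord and cord at 3 days after a crush injury (spinal cord injury, SCI). Of 503 labelled cells, 223 came from this sort. Cells were kept when they had 200 or more detected genes and under 20% of counts from mitochondrial genes, which removed 1 cell. Another 13 cells were dropped because *Pecam1*, an endothelial adhesion gene, exceeded both 1 on the ln(1 + counts per 10000) scale and *Pdgfrb*. This left 209 cells. The uninjured cells were 46 of 53 on plate 209 and 60 of 65 on plate 213, and the injured cells were 58 of 58 on plate 211 and 45 of 47 on plate 215.

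By their labels all mice were female. The study's methods name only females for crush lesions, while its reporting summary names both sexes for sequencing. The mice carried GLAST-CreERT2, R26R-tdTomato and Pdgfrb-eGFP, in uninjured and injured animals alike. EGFP follows the promoter of *Pdgfrb*, the PDGF receptor of pericytes, smooth muscle cells and fibroblasts of the vessel wall. GLAST is the glutamate transporter encoded by *Slc1a3*, and tamoxifen given to these mice switches on tdTomato permanently in cells that use its promoter. A tdTomato- cell is therefore one in which recombination did not take place, which does not show that *Slc1a3* was off. The injury was a complete crush of the thoracic cord in adult animals on a C57BL/6J background, and the segment with the lesion was dissociated on its own. The labels do not tie cells to animals, so each group was treated as 1 sample and no test, p-value or standard error was computed from cells. Uninjured and injured cells also lay on different plates, so an effect of injury and an effect of plate cannot be told apart.

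Pericytes sit on capillaries inside the basement membrane that they share with the endothelium, and smooth muscle cells wrap arterioles and venules. Both are mural cells. They depend on PDGF-B from the endothelium, hold the vessel wall together, set its tone and take part in the blood-brain barrier. Fibroblasts lie outside the muscle layer of larger vessels and make fibrillar collagen. After a wound to the central nervous system, stromal cells that express *Pdgfrb* leave the vessel wall, divide and lay down a fibrotic scar of collagen, fibronectin and matricellular proteins. The question put to these cells was how vessel-associated cells without the GLAST lineage label respond to the crush.

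The kept cells held 26887338 counts in the uninjured group and 25645409 in the injured group, with medians of 229714 and 204006 counts and 6730 and 7831 genes per cell. Counts were summed over cells and expressed as CPM (counts per 1000000 counts), and groups were compared by the difference of log2(CPM + 1), which understates the change of genes near 1 CPM. A gene was tested where it reached 10 CPM in either group. It is said below to have been called higher or lower, or to have risen or fallen, only where it differed by 1 or more on that scale in the group sums and between each injured plate and each uninjured plate (4 plate pairs). Intervals are exact 95% Poisson or binomial intervals and cover counting error only. Plate 211 stood apart in its gene symbols, with 10358 symbols that had no count on it and 4054 that had counts on it alone, and these were left out. Values of a pair of plates are given in the order 209 and 213 for uninjured and 211 and 215 for injured cells. *Pdgfrb* was at 1889 and 1878 CPM on the uninjured plates and 2989 and 2038 CPM on the injured plates, and *Slc1a3* at 12.6 and 40.5 CPM in uninjured and 12.5 and 9.07 CPM in injured cells, and neither was called. 1 cell held 44.3% of the uninjured *Slc1a3* counts.

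The sort was checked against marker genes of the vessel wall and of other cell types. Each cell was placed by the mean level of 7 mural genes (*Rgs5*, *Notch3*, *Kcnj8*, *Abcc9*, *Cspg4*, *Mcam* and *Higd1b*) minus that of 7 fibroblast genes (*Dcn*, *Lum*, *Pdgfra*, *Fbln1*, *Gsn*, *Serping1* and *Mfap5*), which gives a range and not a cell type. In the uninjured group, 84 cells (79.2%, 70.3% to 86.5%) lay on the mural side, 10 (9.43%, 4.62% to 16.7%) on the fibroblast side and 12 between. In the injured group, 70 cells (67.96%, 58.04% to 76.8%) lay on the mural side, 28 (27.2%, 18.9% to 36.8%) on the fibroblast side and 5 between. In the uninjured group 11 cells lay within 0.25 of a cut, and in the injured group 3. The fibroblast side thus held a larger share of the injured cells, and every comparison below that mixes both sides carries this shift.

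Endothelial messenger RNA differed in amount between the groups. The summed level of 10 endothelial genes (*Pecam1*, *Flt1*, *Kdr*, *Tek* and *Tie1* among them) had a median of 95.3 counts per 10000 in uninjured cells, with a range of 0 to 260, and of 10.5 in injured cells, with a range of 0.125 to 182. The plate medians were 87.8 and 95.7 on the uninjured plates and 9.86 and 13.6 on the injured plates. At 20 or more counts per 10000 lay 76 uninjured cells (71.7%, 62.1% to 80.02%) and 27 injured cells (26.2%, 18.04% to 35.8%), and 71 of those 76 and all 27 were on the mural side. All 10 of these genes reached 10 CPM in both groups, and 6 of the 10 were called lower (*Tek*, *Tie1*, *Kdr*, *Flt1*, *Slco1a4* and *Pecam1*). Because this signal moved with injury, values of genes below are also given in cells with fewer than 20 endothelial counts per 10000 (endothelial-low, 30 uninjured and 76 injured) and in cells with 20 or more (endothelial-high, 76 and 27). The uninjured endothelial-low cells held few pericyte transcripts (*Kcnj8* 8.24 CPM against 2157 CPM in the endothelial-high cells) and many smooth muscle transcripts (*Pln* 748 against 5.65 CPM), so these subsets also differ in mural make-up. Within endothelial-low cells, the 14 pericyte genes summed to 4293 CPM in uninjured and 12030 CPM in injured cells. The 19 contractile and smooth muscle genes summed to 18493.5 and 6269 CPM there. In endothelial-high cells these sums were 17435 and 19078.5 CPM, and 4230 and 5714 CPM. Endothelial-low values below thus also compare cells of unlike mural make-up, and the part of this in them was not tested.

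**Figure D1:**
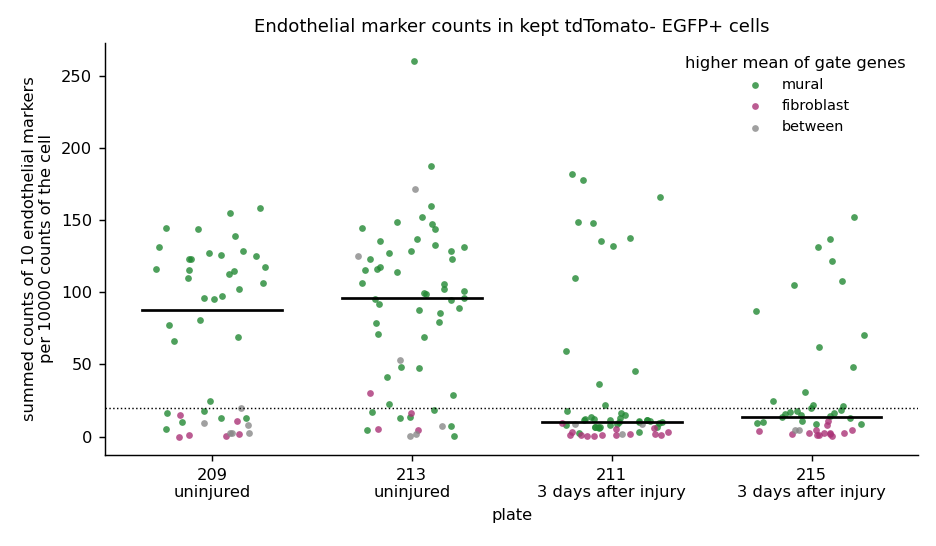
Summed counts of 10 endothelial marker genes per 10000 counts in each kept tdTomato- cell, by plate, with colour for the gate genes that had the higher mean. Of the uninjured cells 76 lie at or above the line at 20 and 30 below it, and of the injured cells 27 and 76.

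Markers of other cells were low in the sums over all cells. The 9 astrocyte genes summed to 776 CPM in uninjured and 230.5 CPM in injured cells, and 1 uninjured cell held 45.4% of the former. In endothelial-low cells the astrocyte genes summed to 1990 CPM in uninjured and 250 CPM in injured cells. In endothelial-high cells they summed to 440 and 177 CPM. Of the 8 of them that were tested, 4 were called lower (*Slc1a2*, *Atp1b2*, *Aldoc* and *Aqp4*). The oligodendrocyte genes summed to 169.6 and 160.5 CPM (2 of 4 tested called lower, *Mbp* among them), microglia and macrophage genes to 55.8 and 42.9 CPM (0 of 3), neuronal genes to 58.5 and 21.3 CPM (0 of 1), oligodendrocyte progenitor genes to 48.8 and 9.83 CPM (1 of 1, *Gpr17*), Schwann cell genes to 10.2 and 6.75 CPM, and red blood cell genes to 4.31 and 2.42 CPM. No count of *Mog* or *Ermn* was found in uninjured cells and none of *Olig2* or *Lhfpl3* in either group. Their part in the results below was not tested.

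Of 10982 tested genes, 585 were called higher (5.33%) and 899 lower (8.19%) in injured cells. Counts of called list members below are to be read against these shares. The median difference over all tested genes was -0.19 in the sums and lay between -0.36 and -0.01 in the 4 plate pairs. TMM scaling moved that median to 0.10 and the split to 763 higher and 655 lower, and median-of-ratios scaling moved it to 0.02 and the split to 739 and 678, so differences are best read against the median of all genes. The plates of a single group also differed: between the uninjured plates 17.6% of tested genes lay 1 or more apart, and between the injured plates 13.5%, against 32.2% to 35.05% between an injured and an uninjured plate. The genes were called on sums that include the cells of each subset, so part of the agreement that follows was fixed in advance. No share over all tested genes is given beside it. Of the 585 genes called higher, 518 differed by 1 or more in the same direction among mural-side cells. In endothelial-low cells 506 did so, and in endothelial-high cells 477. Of the 899 genes called lower, 865 did so among mural-side cells, 512 in endothelial-low cells and 580 in endothelial-high cells, and 318 in both of the last. In endothelial-low cells 227 of the 899 had the other sign. By subset, the share that held its direction and size ran from 72.1% to 88.5% for the genes called higher, and from 29.7% among fibroblast-side cells to 96.2% among mural-side cells for the genes called lower. Of the 899 genes called lower, 432 did not reach 10 CPM among fibroblast-side cells and 243 among endothelial-low cells. Each subset also had genes called higher that did not reach this level there.

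**Figure D2:**
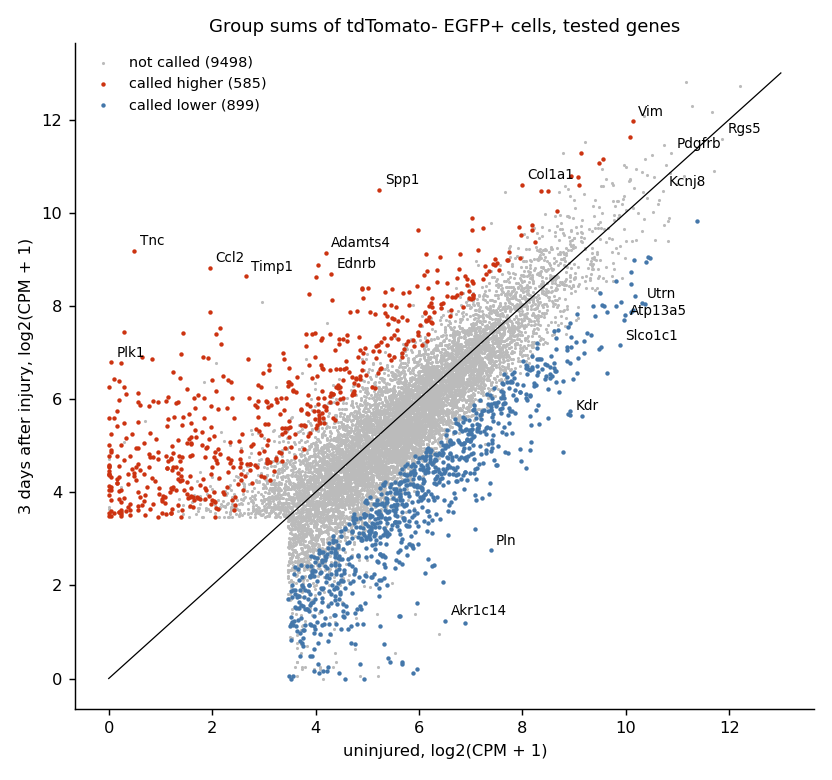
log2(CPM + 1) of each tested gene in the uninjured (x axis) and injured (y axis) sums, with the 585 genes called higher and the 899 called lower in colour. The called genes lie away from the diagonal at all levels, with *Tnc* the farthest above it among the genes named.

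Genes of mitosis rose as a block. All 20 members of the list were called higher, against 5.33% of tested genes, with a median difference of 4.61 (4.601 to 5.21 over the plate pairs) and of 4.94 among mural-side, 5.002 among endothelial-low and 5.55 among endothelial-high cells. *Plk1*, a kinase that drives entry into and exit from mitosis, was at 122.1 and 97.7 CPM after injury against 0.116 and 0 CPM without. *Ccnb1*, the cyclin that activates CDK1, was at 0.347 and 0.110 CPM on the uninjured plates and 150.1 and 72.001 CPM on the injured plates. *Top2a*, the topoisomerase that untangles replicated chromosomes, was at 1.27 and 0.219 CPM in uninjured and 170.4 and 72.8 CPM in injured cells. The uninjured plates stood near 0 for these 3 genes. That injured and uninjured plates do not overlap follows from the call rule for every called gene. *Pimreg*, a regulator of the metaphase to anaphase step, had no count in uninjured cells and 70.8 and 78.8 CPM on the injured plates, at least 672-fold higher with the uninjured sum set to a floor of 3 counts. Further mitotic genes stood among the largest rises over all genes, with differences of 5.78 for *Knstrn*, 5.77 for *Pbk*, 5.58 for *Ccnb2*, 5.32 for *Cdca8*, 5.27 for *Nuf2*, 5.07 for *Cdk1*, 5.07 for *Cdca3* and 5.06 for *Kif22*.

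Of 22 genes of DNA replication 17 rose and none fell, with a median of 2.21 (2.08 to 2.38). *Rrm2*, the regulated subunit of ribonucleotide reductase, was at 158.3 and 129.4 CPM after injury against 10.7 and 0.110 CPM without, and *Cdc45*, a part of the replicative helicase, at 1.16 and 2.30 CPM on the uninjured plates and 48.4 and 51.8 CPM on the injured plates. *Chaf1a*, which loads histones behind the fork, was at 0.579 and 1.10 CPM in uninjured and 109.1 and 15.47 CPM in injured cells, so that its injured plates stood further apart from each other than those of *Cdc45*. *Uhrf1*, which carries DNA methylation through replication, was at 84.3 and 79.3 CPM after injury against 0.811 and 5.75 CPM without.

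How many cells carried these transcripts was counted after thinning each cell to 20000 counts, which left out 14 uninjured cells and 1 injured cell. At least 4 of the 20 mitosis genes had a count in 1 of 92 uninjured cells (1.09%, 0.0275% to 5.91%) and in 34 injured cells (33.3%, 24.3% to 43.4%). At full depth the same count gave 16 of 92 (17.4%) and 54 injured cells (52.9%). Among mural-side cells 21 of 69 injured cells met the thinned count.

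The promoters of these genes are shown because mitotic and replication genes are controlled through short elements near the gene start, the cell cycle homology region (CHR) and CCAAT boxes for the former and E2F sites for the latter. Stretches of 250 bases before the gene start were taken from RefSeq (GRCm38.p6), written along the strand of the gene. The genes shown had the largest rises in their list among those that held a marked element in this stretch. They were thus chosen for holding it and do not stand for the whole list. *Rrm2* and *Cdc45*, which rose by more than *Uhrf1*, are not shown. In the first 3, capitals mark the CHR letters, which read TTTGAA on one strand and TTCAAA on the opposite strand. They also mark the CCAAT box, read as CCAAT or, on the opposite strand, as ATTGG.
Plk1, chr7:122159185-122159434, plus strand: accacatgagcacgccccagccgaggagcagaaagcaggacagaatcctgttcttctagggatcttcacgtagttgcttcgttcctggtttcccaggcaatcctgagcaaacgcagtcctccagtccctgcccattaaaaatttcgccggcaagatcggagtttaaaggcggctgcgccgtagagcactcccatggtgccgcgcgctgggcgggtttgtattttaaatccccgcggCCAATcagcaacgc
Ccnb1, chr13:100786487-100786736, minus strand: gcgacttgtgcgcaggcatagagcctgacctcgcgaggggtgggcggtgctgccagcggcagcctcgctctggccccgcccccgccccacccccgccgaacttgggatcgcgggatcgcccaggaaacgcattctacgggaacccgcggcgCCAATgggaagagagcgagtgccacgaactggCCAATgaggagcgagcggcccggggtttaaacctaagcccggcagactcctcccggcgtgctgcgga
Top2a, chr11:99024190-99024439, minus strand: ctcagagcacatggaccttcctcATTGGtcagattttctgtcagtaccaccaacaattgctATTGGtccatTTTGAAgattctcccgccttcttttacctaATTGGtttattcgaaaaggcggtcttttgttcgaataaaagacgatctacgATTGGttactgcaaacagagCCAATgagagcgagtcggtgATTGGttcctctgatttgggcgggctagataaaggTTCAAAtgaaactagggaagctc
In the next 2, capitals mark the E2F letters TTTGGCG or CGCCAAA and TTCCCGC or GCGGGAA, which overlap in *Chaf1a*.
Chaf1a, chr17:56040166-56040415, plus strand: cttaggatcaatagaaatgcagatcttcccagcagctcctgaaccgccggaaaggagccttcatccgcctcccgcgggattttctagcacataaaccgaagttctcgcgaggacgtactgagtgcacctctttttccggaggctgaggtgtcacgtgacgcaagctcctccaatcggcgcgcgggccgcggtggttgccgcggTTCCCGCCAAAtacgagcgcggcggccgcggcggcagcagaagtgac
Uhrf1, chr17:56303087-56303336, plus strand: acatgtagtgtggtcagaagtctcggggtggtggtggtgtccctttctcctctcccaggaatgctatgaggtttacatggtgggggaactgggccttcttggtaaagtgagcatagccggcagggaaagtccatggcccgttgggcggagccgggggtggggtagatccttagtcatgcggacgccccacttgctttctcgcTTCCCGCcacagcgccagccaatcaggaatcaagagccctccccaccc

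The letters were counted on both strands from 250 bases before to 50 bases after the start, in 27025 promoters. TTTGAA was found in 11 of the 16 mitosis genes that had a promoter in the table (68.8%), in 21.2% of genes called higher, in 11.7% of tested genes and in 18.1% of all promoters. A CCAAT box was found in 14 of the 16 mitosis genes, against 37.9% of all promoters, and both elements together in 11 of 16, against 7.12%. Either E2F form was found in 10 of 20 DNA replication genes, in 0 of 16 mitosis genes, in 11.1% of tested genes and in 6.07% of all promoters. In *Plk1* the CHR letters began 31 bases after the start and so lie outside the stretch shown, and *Ccnb1* held no TTTGAA. A match of letters describes the sequence and does not show that a factor binds there.

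Of 23 genes of the scar matrix 14 rose and none fell, with a median of 1.96 (1.91 to 2.21), of 2.16 among mural-side cells and of 0.64 among fibroblast-side cells. *Tnc* encodes tenascin-C, a matricellular glycoprotein of wounds, and stood at 1.04 and 0.110 CPM on the uninjured plates and 516 and 637 CPM on the injured plates, a 1416-fold ratio of the sums (791 to 2838). Its difference was 8.89 among mural-side, 7.48 among fibroblast-side, 8.89 among endothelial-low and 8.22 among endothelial-high cells. *Postn*, periostin, another matricellular protein, was at 31.6 and 7.23 CPM in uninjured and 595 and 208 CPM in injured cells, with differences of 2.68 to 6.18 over the pairs. *Spp1*, osteopontin, was at 2268 and 696 CPM after injury against 37.5 and 36.3 CPM without, and differed by 5.96 in endothelial-low but by 0.93 in endothelial-high cells.

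*Col1a1*, the main chain of fibrillar type I collagen, was at 238 and 259.6 CPM on the uninjured plates and 2068 and 1079.7 CPM on the injured plates. Its level among fibroblast-side cells was 3291 CPM in uninjured and 5313 CPM in injured cells, a difference of 0.69, and among mural-side cells it was 0.707 and 26.96 CPM, a difference of 4.03. The larger share of fibroblast-side cells moved with the rise of the sums, and its part was not tested. *Col5a1* was at 5.95 and 32.8 CPM among mural-side cells (difference 2.28) and differed by -0.05 among fibroblast-side cells. *Col6a3* differed by 3.85 and 0.84 on the respective sides, and *Col8a1* by 2.20 and 2.13. *Fn1*, fibronectin, was at 752 and 645 CPM in uninjured and 1328 and 1152 CPM in injured cells and was not called, with differences of -0.07 on the mural and 0.90 on the fibroblast side. *Eln*, elastin, rose to 419 and 71.8 CPM from 18.4 and 30.96 CPM, but among mural-side cells its difference was -1.42.

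Of the 14 tested genes of the basement membrane, the sheet that pericytes share with endothelium, 5 were called higher and none lower (median 0.62). *Col4a1* and *Col4a2*, its type IV collagen chains, differed by 1.68 and 1.40, and by 2.05 and 1.78 among mural-side cells. *Lamb1*, a laminin chain, was at 355 and 364 CPM after injury against 109.3 and 83.9 CPM without. *Col15a1* and *Col18a1*, collagens at the border of basement membranes, differed by 3.20 and 2.98 over all cells, by 4.06 and 3.82 on the mural side and by -0.74 and -0.60 on the fibroblast side. *Lama5*, a laminin chain of mature vessels, was at 168 and 130.8 CPM on the uninjured plates and 40.7 and 66.1 CPM on the injured plates and was not called.

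Genes that fold and crosslink collagen had 5 of 15 tested members called higher and none lower, with a median of 1.27. *Serpinh1*, the collagen chaperone HSP47, was at 1199 and 1036 CPM in uninjured and 3893 and 2461 CPM in injured cells and was among the highest in level of all genes that rose. *Loxl2*, a crosslinking amine oxidase, was at 413 and 204 CPM after injury against 10.9 and 14.9 CPM without, with differences of 6.07 on the mural and 1.19 on the fibroblast side. *Lox* rose in the sums (2.81) but differed by -1.17 among mural-side cells and by 2.25 among fibroblast-side cells. *Bmp1*, the proteinase that trims procollagen, was at 44.7 and 77.8 CPM on the uninjured plates and 344 and 455 CPM on the injured plates. Of 14 chaperones of the endoplasmic reticulum at large none was called, with a median of 0.63.

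Secreted proteases and their inhibitors had 12 of 23 tested members called higher and 1 lower, with a median of 1.69. *Timp1*, an inhibitor of matrix metalloproteinases, was at 7.29 and 4.33 CPM in uninjured and 388 and 407 CPM in injured cells. It differed by 5.75 on the mural and 4.56 on the fibroblast side. *Adamts4*, an enzyme that cleaves chondroitin sulphate proteoglycans, was at 639 and 496 CPM after injury against 21.2 and 15.45 CPM without. *Mmp9*, a gelatinase, was at 0.116 and 0 CPM on the uninjured plates and 19.4 and 12.2 CPM on the injured plates, where 1 cell held 58.6% of the injured counts and the difference without the top cell of each group was 2.91. *Mmp19* was at 3.59 and 7.62 CPM in uninjured and 45.3 and 65.7 CPM in injured cells, and *Serpine2*, a thrombin inhibitor, at 2136 and 765 CPM after injury against 268 and 353 CPM without, with 48.3% of the injured counts in 1 cell and a difference of 1.30 without the top cells. *Timp4*, another inhibitor of metalloproteinases, fell, from 29.5 and 56.4 to 0.656 and 2.31 CPM.

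Of 8 tested chemokines 5 rose and 1 fell, with a median of 3.06, and 8 more stayed under 10 CPM in both groups. *Ccl2*, which draws monocytes, was at 6.25 and 1.31 CPM on the uninjured plates and 541 and 367 CPM on the injured plates, and differed by 7.04 on the mural, 5.35 on the fibroblast side, 7.44 in endothelial-low and 5.21 in endothelial-high cells. *Ccl7*, a close relative, was at 1.39 and 20.2 CPM in uninjured and 156.95 and 179 CPM in injured cells, and 1 cell held 94.5% of its uninjured counts, with a difference of 6.30 without the top cells. *Cxcl1*, which draws neutrophils, was at 306 and 153.7 CPM after injury against 8.92 and 46.8 CPM without, *Cxcl10*, an interferon-inducible chemokine for lymphocytes, at 0.116 and 0.110 CPM on the uninjured plates and 65.8 and 40.7 CPM on the injured plates, and *Ccl11* at 7.29 and 39.2 CPM in uninjured and 517 and 155.01 CPM in injured cells. Of these, *Cxcl10* was near 0 on the uninjured plates, while *Cxcl1* and *Ccl11* were already present on plate 213. Without the top cell of each group *Cxcl10* was at 24.8 CPM in the injured sum, a difference of 4.63 against 5.59 with it. *Cxcl12*, a homeostatic chemokine of the vessel wall, was at 235 and 233 CPM after injury against 688 and 839.7 CPM without, and differed by -2.31 on the mural side, by -1.29 in endothelial-high and by 0.04 in endothelial-low cells.

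Among 17 tested cytokines and receptors 4 rose and 1 fell (median 0.87). *Il6* was at 0.232 and 0.110 CPM on the uninjured plates and 70.6 and 92.8 CPM on the injured plates, and *Il11*, a cytokine of the same receptor family that is linked to fibrosis, at 0 and 1.81 CPM in uninjured and 45.3 and 83.5 CPM in injured cells. Both were close to 0 on the uninjured plates. *Tnfrsf1a*, the main receptor for TNF, was at 243 and 287 CPM after injury against 54.9 and 83.8 CPM without, with like differences on the mural (2.04) and fibroblast (1.40) sides. *Lifr*, the receptor for LIF, fell, to 36.2 and 40.8 from 123.3 and 109.2 CPM. *Il33*, an alarmin, was at 5.79 and 57.9 CPM on the uninjured plates and 198 and 92.1 CPM on the injured plates and was not called.

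Growth factor genes moved in both directions. *Vegfa*, the main angiogenic factor, was at 1.74 and 6.30 CPM in uninjured and 28.5 and 21.9 CPM in injured cells, and *Angptl2* and *Angptl4* were called higher with differences of 1.41 and 1.36, in a list of angiogenic factors with 4 of 18 tested members called higher, 1 (*Vegfc*) lower over all cells though at 1.70 in endothelial-low cells, and a median of 0.59. Of 5 tested PDGF genes (median 0.40) 2 rose and 2 fell. *Pdgfa* rose, at 111.9 and 211.2 CPM after injury against 49.4 and 42.3 CPM without, and *Pdgfrl* rose (1.84). *Pdgfb*, the ligand that endothelium offers to pericytes, was at 96.2 and 85.9 CPM in uninjured and 14.6 and 26.5 CPM in injured cells. *Pdgfd* was at 125.9 and 169 CPM in uninjured and 15.4 and 40.9 CPM in injured cells. Both fell over all cells, and their values in the endothelial subsets are not given here. The endothelial signal was also lower in injured cells, and its part in these falls was not tested.

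In the TGF-beta, activin and BMP list 4 of 20 tested genes rose and 2 fell, against 5.33% and 8.19% of all tested genes. The median was 0.62 in all cells but -0.54 among mural-side cells. *Fstl1* and *Fstl3*, secreted follistatin-like proteins, differed by 2.14 and 1.86 over all cells and by 2.43 and 2.34 among mural-side cells. *Ltbp1*, which stores latent TGF-beta in the matrix, fell to 37.6 and 60.5 from 189 and 218 CPM, while *Ltbp2* rose to 26.6 and 16.96 from 1.16 and 0 CPM, on the fibroblast side (6.24) and not on the mural side (-0.42). *Inhba*, the activin A subunit, was at 37.4 and 39.8 CPM after injury against 21.7 and 4.33 CPM without and was not called.

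Of 15 tested Wnt genes 2 rose and 3 fell, against 5.33% and 8.19% of all tested genes. Their median was 0.59 in the sums, -0.75 to 0.68 over the plate pairs and -0.36 among mural-side cells. *Wnt5a*, a non-canonical ligand, rose to 60.6 and 79.4 from 11.2 and 11.4 CPM, with a difference of 3.38 on the mural side, and *Rspo3* rose in the sums (1.98) but differed by -0.36 on the mural side. *Lef1*, *Nkd1* and *Sfrp2* fell, with differences of -2.19, -2.73 and -1.99. In endothelial-low cells *Nkd1* differed by -5.07 but *Lef1* and *Sfrp2* by 3.59 and 4.09. Retinoid genes had 4 of 11 tested members called higher, with a median of 1.003 in all cells and of -0.09 among mural-side cells. *Aldh1a2*, which makes retinoic acid, was at 9.49 and 17.5 CPM on the uninjured plates and 169 and 173 CPM on the injured plates, with differences of 1.92 on the mural and 1.88 on the fibroblast side, and *Crabp2*, a retinoic acid carrier, differed by -0.09 and 1.51. Of 10 tested IGF genes *Igfbp3* rose (3.05) and *Igf1r* fell (-1.68, but 0.09 in endothelial-low cells). The IGF median was 1.16 in all cells, 0.34 to 1.30 over the plate pairs and 0.12 among mural-side cells.

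**Figure D3:**
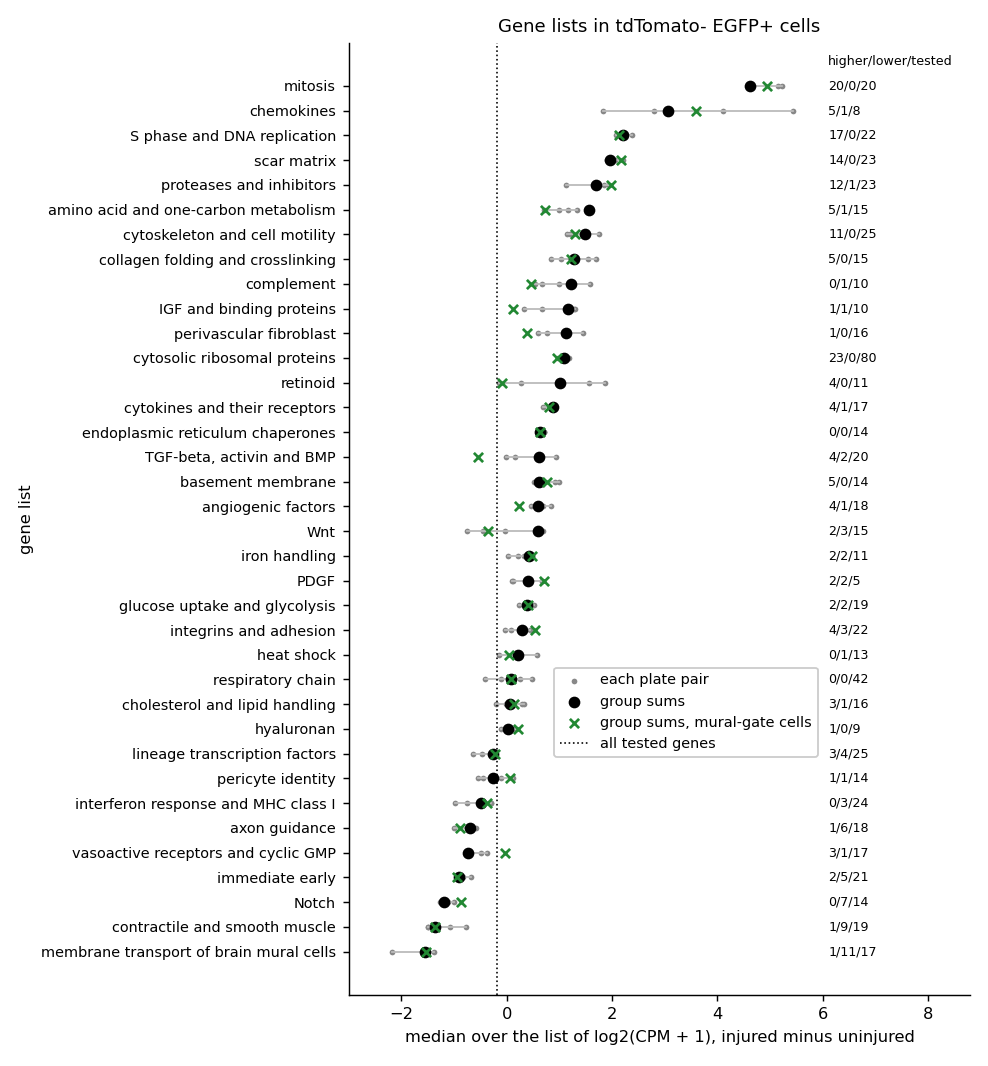
Median difference of log2(CPM + 1), injured minus uninjured, over the tested members of each gene list, with the range over the 4 plate pairs and the counts called higher, called lower and tested. Mitosis stands highest at 4.61 and membrane transport lowest at -1.55 among the response lists, and the dotted line marks the median of all tested genes at -0.19.

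Of 17 tested receptors and cyclic GMP genes of vasoactive signals 3 rose and 1 fell, against 5.33% and 8.19% of all tested genes, with a median of -0.73. A further 11 members were not tested, being under 10 CPM or not among the symbols used. *Ednrb*, the endothelin B receptor, was at 11.3 and 22.3 CPM in uninjured and 516 and 319.8 CPM in injured cells, a 21.996-fold ratio of the sums (20.1 to 24.1, counting error only). The plate pairs differed by 3.78 to 5.39. Without the top cell of each group *Ednrb* was at 8.34 CPM in uninjured and 346 CPM in injured sums, a difference of 5.22. Its difference was 5.01 on the mural side, 4.997 in endothelial-low and 4.02 in endothelial-high cells, and -0.57 on the fibroblast side. *Avpr1a*, a vasopressin receptor that constricts smooth muscle, was at 55.8 and 109.6 CPM after injury against 10.4 and 0.931 CPM without, and differed by 6.88 on the mural and -0.39 on the fibroblast side. *Ptgir*, the prostacyclin receptor, was at 24.3 and 2.47 CPM on the uninjured plates and 53.6 and 52.8 CPM on the injured plates, with 1 cell holding 79.2% of the uninjured counts and a difference of 3.98 without the top cells. *S1pr1*, a sphingosine 1-phosphate receptor that is also strong in endothelium, fell to 97.9 and 81.97 from 326 and 359 CPM, and differed by -0.45 in endothelial-high cells.

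Adhesion genes moved in both directions. *Itga5*, the fibronectin receptor chain, was at 21.5 and 31.998 CPM in uninjured and 275 and 387 CPM in injured cells, and *Itgb3*, a chain of the vitronectin receptor, at 58.7 and 69.03 CPM after injury against 0.579 and 7.94 CPM without. *Cd44*, the hyaluronan receptor, was at 3.94 and 11.9 CPM on the uninjured plates and 107.4 and 141.9 CPM on the injured plates, and *Thy1*, a surface glycoprotein of activated stromal cells, at 9.15 and 41.6 CPM in uninjured and 384 and 284 CPM in injured cells. Among mural-side cells these 4 differed by 3.57, 4.61, 5.73 and 6.51, and on the fibroblast side by 1.62, -0.92, 0.23 and -1.70. *Itga6*, a laminin receptor chain, fell to 37.2 and 25.2 from 146.01 and 201 CPM, and *Itga8* fell (-2.32), but in endothelial-high cells *Itga8* differed by 0.64. In the list as a whole 4 of 22 tested genes rose and 3 fell (median 0.28).

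Of 25 cytoskeletal genes 11 rose and none fell, with a median of 1.49. *Vim*, vimentin, was the gene of highest level among all that rose and stood at 5348 and 2769 CPM after injury against 1211 and 1082 CPM without. *Tubb6*, a beta-tubulin, was at 65.4 and 60.7 CPM on the uninjured plates and 662 and 908 CPM on the injured plates, and *Fscn1*, which bundles actin in cell protrusions, at 0.926 and 10.7 CPM in uninjured and 88.3 and 106.5 CPM in injured cells. *Tpm4* went from 716 CPM in the uninjured sum to 2130.1 CPM in the injured sum, and *Tubb5* from 492 to 1759.7 CPM. *Lgals1*, galectin-1, rose in the sums (2.86), but with CPM taken per cell and then averaged the difference was -0.47.

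Genes of protein synthesis and energy metabolism had calls in both directions. Of 80 tested cytosolic ribosomal protein genes 23 rose and none fell, with a median of 1.08 (0.98 to 1.19). None of 42 respiratory chain genes was called (median 0.08). Glycolysis had 2 of 19 called in each direction (median 0.39), against 5.33% and 8.19% of all tested genes. *Slc16a3*, the lactate exporter, was at 123.3 and 207 CPM after injury against 1.16 and 4.22 CPM without, and *Hk2*, a hexokinase, at 0.811 and 5.59 CPM on the uninjured plates and 19.3 and 27.97 CPM on the injured plates. *Slc2a1*, the glucose transporter of the blood-brain barrier, was at 1345 and 1386 CPM in uninjured and 496 and 555 CPM in injured cells, and fell along with the lactate carrier *Slc16a1* (-2.15). Both are also strong in barrier endothelium, and they differed by 0.19 and -0.77 in endothelial-low and by -0.21 and -1.67 in endothelial-high cells. In amino acid and one-carbon metabolism 5 of 15 tested genes rose and 1 fell (median 1.55), led by *Slc7a11*, the cystine importer, at 56.8 and 64.3 CPM after injury against 1.62 and 0.931 CPM without, which differed by 6.30 on the fibroblast and 1.84 on the mural side. The median of this list was 0.71 to 1.33 over the plate pairs, under that of the sums, and 0.73 among mural-side cells.

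*Hmox1*, the haem-degrading enzyme, was at 19.2 and 18.8 CPM on the uninjured plates and 502 and 71.6 CPM on the injured plates, with 79.05% of the injured counts in 1 cell. Without the top cell of each group it was at 15.3 CPM in uninjured and 58.9 CPM in injured sums, a difference of 1.88 against 3.80 with it. The iron exporter *Slc40a1* and the transferrin receptor *Tfrc* fell, with differences of -2.09 and -1.67 over all cells, in a list with 2 of 11 tested genes called in each direction (median 0.42). In endothelial-low cells *Tfrc* differed by -1.81 but *Slc40a1* by 3.46. Among lipid genes 3 of 16 rose and 1 fell (median 0.07). *Fabp4* and *Fabp5*, fatty acid carriers, differed by 4.01 and 2.81, and *Apoe*, the apolipoprotein of the nervous system, was at 525 and 643 CPM in uninjured and 149.7 and 188 CPM in injured cells. *Apoe* also differed by -1.69 in endothelial-low and -1.08 in endothelial-high cells.

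Of 14 pericyte genes 1 rose and 1 fell, which is near the shares of 5.33% and 8.19% of all tested genes. *Cd248*, a surface glycoprotein of activated pericytes, rose, and *Atp13a5*, a transporter selective for brain pericytes, fell, and the median was -0.26, with both signs over the pairs and 0.03 under TMM scaling. *Rgs5*, a regulator of G protein signalling, was at 4370.1 and 1903 CPM after injury against 3871 and 3639 CPM without, and *Vtn*, vitronectin, at 3642 and 3055 CPM on the uninjured plates and 7174 and 2237 CPM on the injured plates. *Kcnj8* and *Abcc9*, the subunits of the pericyte potassium channel, were at 1692 and 894 CPM in uninjured and 1414 and 608 CPM in injured sums. For *Rgs5*, *Vtn* and *Kcnj8* both uninjured plates lay between the injured ones, and *Abcc9* was at 889 and 896 CPM in uninjured and 843 and 396 CPM in injured cells. *Cd248* was at 242 and 291 CPM after injury against 62.8 and 99.6 CPM without. *Atp13a5* was at 977 and 1011 CPM on the uninjured plates and 207 and 205 CPM on the injured plates and differed by -1.85 on the mural side and -1.58 in endothelial-high cells, but by 0.45 in endothelial-low cells, where the uninjured level was 93.8 CPM.

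Of 19 contractile and smooth muscle genes 9 fell and 1 (*Des*) rose, with a median of -1.36, against 8.19% of tested genes called lower. *Pln*, the calcium pump inhibitor phospholamban, was at 168 and 166 CPM in uninjured and 1.31 and 9.74 CPM in injured cells, where 1 cell held 88.4% of the injured counts and the difference was -6.38 without the top cells. *Myh11*, smooth muscle myosin, was at 51.4 and 130.8 CPM after injury against 677 and 845 CPM without, with differences of -2.52 on the mural side, -5.03 in endothelial-low and -0.80 in endothelial-high cells. *Cnn1*, *Pdlim3* and *Lmod1*, proteins of the contractile filaments, differed by -3.82, -3.47 and -2.57 over all cells and by -1.03, -0.59 and -0.92 in endothelial-high cells. *Acta2* and *Tagln*, which myofibroblasts also make, were not called. *Acta2* was at 1045 and 760.5 CPM on the uninjured plates and 2147 and 1109 CPM on the injured plates, and *Tagln* was at 389 and 287 CPM in uninjured and 194 and 276 CPM in injured cells. *Acta2* differed by -0.97 in endothelial-low cells and by 3.18 in endothelial-high cells, where its level went from 118.7 to 1084 CPM.

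Of 17 tested genes in the list of transporters of brain mural cells 11 fell and 1 (*Slc13a4*) rose, with a median of -1.55. *Slc1a2* and *Atp1b2*, among the 11, were also counted above as astrocyte markers. The endothelial and astrocyte signals were also lower in injured cells, and their part in these falls was not tested. *Slc6a13*, a GABA and taurine transporter, was at 11.9 and 19.4 CPM after injury against 136.2 and 106.4 CPM without, with -1.74 and -3.75 in the endothelial-low and endothelial-high cells. *Slco1c1*, the thyroxine carrier of the barrier, was at 980.4 and 929 CPM on the uninjured plates and 139.1 and 144.2 CPM on the injured plates, with -5.24 and -1.17. *Slc22a8*, an organic anion transporter of the barrier, was at 449 and 624 CPM in uninjured and 30.7 and 64.9 CPM in injured cells, and differed by -2.31 in endothelial-high but by 3.61 in endothelial-low cells, where its level went from 0.172 to 13.3 CPM.

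Of 14 tested Notch genes 7 fell and none rose, with a median of -1.19. *Dll4*, an endothelial ligand, was at 11.4 and 15.8 CPM after injury against 138.6 and 153.1 CPM without, and *Notch4*, *Notch1*, *Jag2*, *Lfng*, *Hey1* and *Hey2* were the others called lower. *Hey2*, a target of Notch in mural cells, differed by -1.68 over all cells and by -2.01 and -1.40 in endothelial-low and endothelial-high cells. *Dll4* differed by 1.22 and -1.97 in the same subsets. Since *Dll4*, *Notch4* and *Jag2* are endothelial genes and the endothelial signal moved with injury, these values stand beside that shift, and its part in them was not tested.

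Immediate early genes had 5 of 21 tested members called lower (*Btg2*, *Atf3*, *Nr4a2*, *Klf2* and *Dusp1*) and 2 higher (*Egr2* and *Myc*), with a median of -0.90. *Btg2*, an antiproliferative gene, was at 1123 and 888 CPM on the uninjured plates and 216 and 320.4 CPM on the injured plates, and differed by -2.16 and -1.19 in endothelial-low and endothelial-high cells. *Atf3* was at 266 and 192 CPM in uninjured and 33.2 and 69.7 CPM in injured cells. *Myc*, a driver of growth, was at 39.8 and 54.7 CPM after injury against 17.8 and 1.04 CPM without. The endothelial-low and endothelial-high values of *Atf3* were -2.88 and -1.42.

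Counts of the lists that follow here stand against 5.33% of tested genes called higher and 8.19% called lower. Interferon response and MHC class I genes had 3 of 24 called lower and none higher (median -0.49). Complement had 0 of 10 called higher and 1 (*Cd59a*) lower (median 1.22). *Psmb9*, an immunoproteasome subunit, was at 89.2 and 73.9 CPM on the uninjured plates and 14.998 and 26.5 CPM on the injured plates, and differed by 3.22 in endothelial-low and -1.96 in endothelial-high cells. Axon guidance had 6 of 18 tested genes called lower, *Sema7a* (-2.28) and *Sema3g* (-1.82) among them, and 1 higher, *Slit2* (2.77), with a median of -0.70. In endothelial-low cells *Sema7a* differed by 1.65, and among mural-side cells *Slit2* by -0.17. Of 25 tested lineage transcription factors 3 rose and 4 fell (median -0.26, 0.03 under TMM scaling). *Prrx1*, a mesenchymal factor, was at 67.2 and 34.6 CPM in uninjured and 175 and 239 CPM in injured cells, and *Runx1* at 50.98 and 49.5 CPM after injury against 17.02 and 5.21 CPM without. *Myocd*, the coactivator that drives smooth muscle genes, was at 7.29 and 23.2 CPM on the uninjured plates and 0.984 and 1.49 CPM on the injured plates, with 0.14 in endothelial-high cells, and *Meox1* fell (-3.16, but 0.78 in endothelial-low cells). Heat shock had 0 of 13 genes called higher and 1 lower (median 0.21), and hyaluronan 1 of 9 higher and 0 lower (median 0.03). Perivascular fibroblast genes had 1 of 16 called higher, *Lum*, and 0 lower, with a median of 1.12 in all cells. The 9 of these 16 that did not place the cells had a median of -0.97 among fibroblast-side cells.

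The largest falls among well detected genes were examined one by one. *Akr1c14*, an aldo-keto reductase that handles steroids, was at 124.6 and 73.7 CPM in uninjured and 1.48 and 1.26 CPM in injured cells, an uninjured to injured ratio of 66.004 (47.3 to 94.99), and differed by -5.16 and -4.41 in endothelial-low and endothelial-high cells. *Arl4d*, a small GTPase, was at 2.62 and 6.02 CPM after injury against 75.8 and 78.7 CPM without, with -3.69 and -3.14, and *Mfsd2a*, the lysophospholipid carrier of the barrier, was at 218 and 290.0 CPM on the uninjured plates and 23.4 and 20.5 CPM on the injured plates, with -4.26 and -2.15. *Utrn*, utrophin, which links the cytoskeleton to laminin, was at 1365 and 1224 CPM in uninjured and 299.8 and 235 CPM in injured cells, with -2.19 and -1.66. These 4 genes fell by 1 or more in both subsets.

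Other large falls did not hold in both or could not be compared there. *Slc1a1*, a glutamate and cysteine transporter, was at 12.4 and 42.5 CPM after injury against 343 and 491 CPM without, *Ddc*, the aromatic amino acid decarboxylase, at 83.7 and 159 CPM on the uninjured plates and 7.05 and 9.45 CPM on the injured plates, and *Pde4c*, a cyclic AMP phosphodiesterase, at 234 and 257 CPM in uninjured and 21.7 and 26.7 CPM in injured cells. In endothelial-low cells they differed by 0.76, 0.53 and 0.07, and in endothelial-high cells by -2.48, -2.52 and -2.51. *Kdr* and *Flt1*, VEGF receptors of endothelium, differed by -3.27 and -2.24 over all cells, and no value is given in the endothelial subsets, which their own counts helped to define. *Elovl7*, *Slc19a3*, *Tdrp*, *Pik3r6* and *H2-Q6* differed by -3.39, -3.28, -3.24, -3.86 and -3.61 over all cells and by -0.81, -0.21, -0.23, -0.93 and -0.09 in endothelial-low cells. Of the falls at the highest levels, *Sptbn1*, *Pltp*, *Egfl7*, *Tns1* and *Spock2* differed by -1.44, -1.44, -1.96, -1.18 and -2.23 over all cells and by -0.88, -0.33, -0.45, -0.75 and -0.71 in endothelial-high cells.

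**Figure D4:**
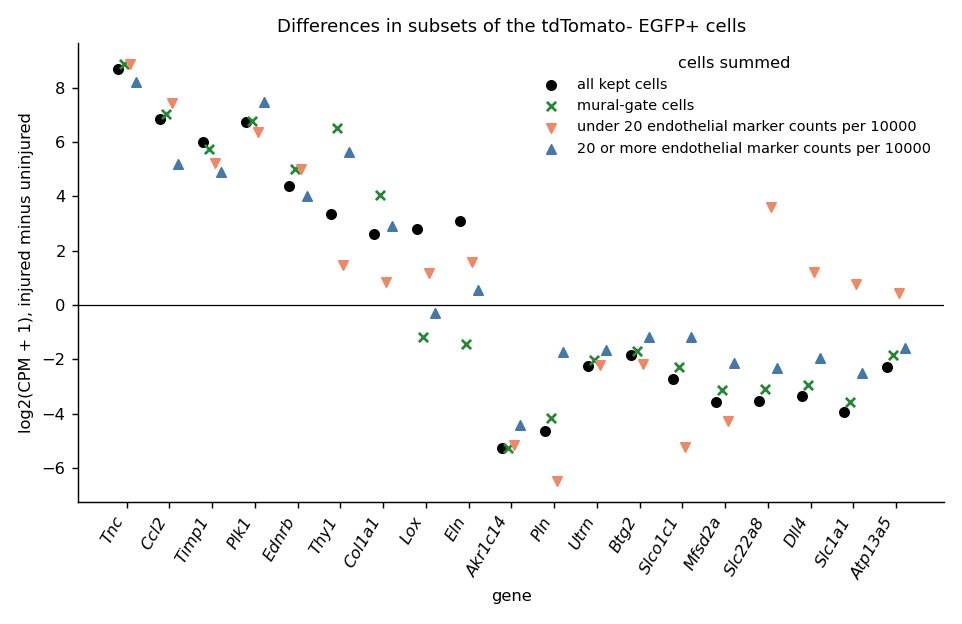
Difference of log2(CPM + 1), injured minus uninjured, of 19 named genes (x axis) in all kept cells, mural-side cells, endothelial-low cells and endothelial-high cells of the tdTomato- sort. *Tnc*, *Ccl2*, *Timp1*, *Plk1* and *Ednrb* lie far above 0 and *Akr1c14*, *Utrn* and *Btg2* below it in every subset shown, while *Lox* and *Eln* change sign among mural-side cells (*Lox* also in endothelial-high cells) and *Slc22a8*, *Dll4*, *Slc1a1* and *Atp13a5* change sign in endothelial-low cells.

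A further pair of the largest rises falls in none of the groups above. *Oacyl*, an acyltransferase-like gene, was at 119.1 and 111.7 CPM after injury against 1.85 and 0.274 CPM without, and *Ptprn*, a phosphatase-like protein of secretory vesicles, at 0.926 and 3.84 CPM on the uninjured plates and 196 and 269 CPM on the injured plates. Both differed by more than 5 in mural-side (6.32 and 6.27), endothelial-low (6.995 and 7.95) and endothelial-high cells (5.41 and 5.42).

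**Figure D5:**
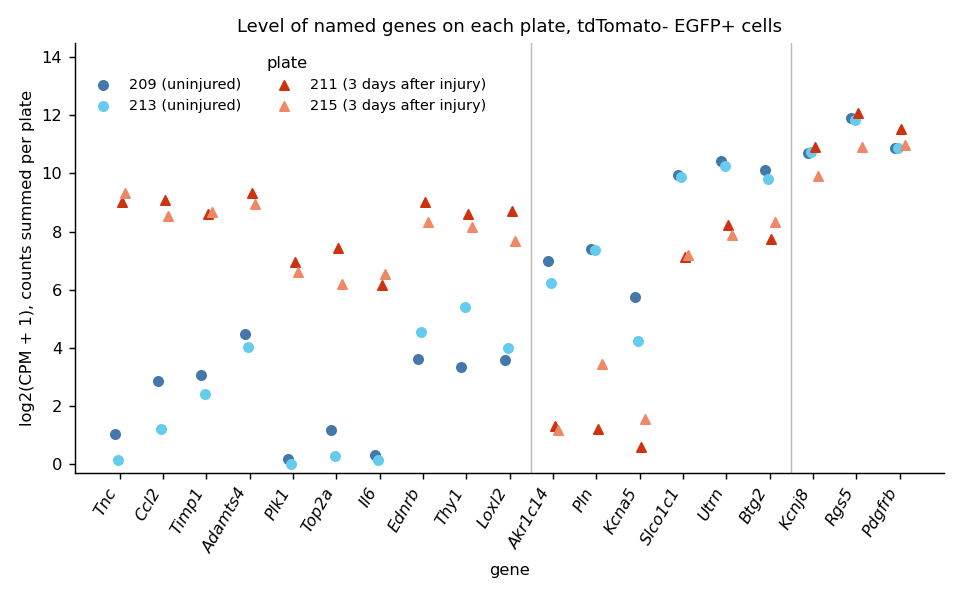
log2(CPM + 1) on each of the 4 plates for named genes that rose, fell or were not called, from left to right. For *Tnc* the injured plates sit at 516 and 637 CPM and the uninjured plates near 1 or below, and for *Rgs5* the injured plates lie on both sides of the uninjured ones.

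The tdTomato+ cells of the same plates (65 and 72 kept cells on plates 209 and 213, 88 and 34 on plates 211 and 215) are set beside these values. There 928 of 10907 tested genes were called higher (8.51%) and 2439 lower (22.4%), with a median over all tested genes of -0.57. Pericyte genes had 12 of 14 members called lower in tdTomato+ cells, with a median of -3.39, and 1 of 14 in tdTomato- cells. In the tdTomato+ sort the mural side held 73.7% of uninjured and 4.10% of injured cells and the fibroblast side 18.2% and 90.98%. The median depth of its plate 215 was 14770 counts per cell, and the part of these shifts in the values was not tested. Mitosis genes had 20 of 20 called higher in both sorts. Endothelial markers had 9 of 10 called lower in tdTomato+ and 6 of 10 in tdTomato- cells. For *Ednrb* the levels were 21.01 CPM in uninjured and 2.12 CPM in injured tdTomato+ cells, against 18.8 and 413 CPM in tdTomato- cells. *Avpr1a*, *Cd248* and *Col4a1*, called higher in tdTomato- cells, differed by 2.53, -0.08 and 0.42 in tdTomato+ cells and were not called there. In all, 5 genes were called higher in tdTomato- and lower in tdTomato+ cells and 0 the other way round. Whether any of these responses differ between the sorts was not tested.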

How the data were processed

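Single EGFP+ spinal cord cells were sequenced with Smart-seq3. The authors deposited whole-number counts for genes in rows and cells in columns, and per the submitters' processing notes the genome was mm10. The aligner, the counter and the kind of count (reads or molecules) are not given in the sources used here. Columns matched labels for 503 cells, and 1465 further columns were set aside. The labels give 3 days, the series text 5 days, and the labels were followed. Of 56701 gene rows, symbols with no count on plate 211 (10358) or only there (4054) were left out with those with no count (21768), which left 20521 (the first 2 classes held 2.83% of uninjured and 3.51% of injured counts). The 92 spike-in rows were also left out. Counts were summed per group and plate in Python 3.11.15 (pandas 2.3.3, numpy 2.4.6, scipy 1.17.1), and TMM (edgeR 4.0.16) and median-of-ratios (DESeq2 1.42.0) factors in R 4.3.3 were scaling alternatives only. The members and lists were chosen with earlier results of these data known, and the split by endothelial counts was added after seeing the data. Genes named were the 15 largest differences in each direction among called genes at 50 CPM or more, detected in at least 20% of cells of the higher group and no cell holding over 25% of its counts, the 10 of highest level in each direction, up to 6 members of each list by size of difference, the genes on which the sort rests and genes the study names. Cells were sorted singly into wells. No doublet caller was run, so wells that held several cells are not excluded. Other alternatives left out a plate, cells or symbols, thinned the cells, averaged cells equally, or changed the level filter, the pseudocount and the size of difference required. Some genes that the rule would name are not reported here.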

Additional observations from a re-analysis of the deposited data

Results flagged for a closer look

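The response of *Ednrb* was higher in tdTomato- cells in every plate pair, with a difference of 4.39, and lower in tdTomato+ cells in every pair, with a difference of -2.82. *Eln* moved apart in the same way, with differences of 3.09 and -1.67. Both genes were flagged because they were called in opposite directions, so the agreement of plate pairs within each sort follows from the call rule. Among mural-side tdTomato- cells *Eln* differed by -1.42. In the tdTomato+ sort the mural side held 73.7% of uninjured and 4.10% of injured cells. The difference between the sorts and the part of these shifts in it were not tested. Counts of spike-in RNA, which no comparison used, were found on plate 211 in 58 of 58 tdTomato- cells, at 0.155% of their counts, and on no other plate.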

How the results depend on the processing

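Against 585 genes called higher and 899 lower, a pseudocount of 10 CPM gave 368 and 498, a level of 50 CPM 304 and 482, the group sums without the plate pairs 1175 and 1949, and a difference of 2 or more 247 and 175. Endothelial-low cells gave 967 higher and 794 lower, of which 370 and 270 were among the genes called over all cells, and endothelial-high cells gave 458 and 517, with 302 and 280 shared. Leaving out a plate leaves fewer pairs to pass and gave 790 to 1025 higher and 1279 to 1640 lower (963 and 1609 without plate 209, 1003 and 1528 without 213, 1025 and 1279 without 211, 790 and 1640 without 215). The other alternatives stayed within 1.5 times of both counts. Dropping every cell with *Pecam1* above 1 gave 778 and 797, but only 395 and 328 of these were shared. No paired analysis was possible because the results come from no test and the labels give no replicate numbers or animals.

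Among the called genes that were named, and lists with a median of 1 or more in size, leaving out genes that define a subset, directions turned in these cases, and the cause was not tested. With CPM averaged over cells *Lgals1* was at -0.47. The retinoid median ran from -0.0064 to 1.68 over the plates left out (-0.0064 without plate 215), and was -0.0874 among mural-side cells, -0.0852 without cells with *Pecam1* above 1 and -0.0657 in endothelial-high cells. Among mural-side cells *Crabp2* was at -0.0874, *Slit2* -0.17, *Eln* -1.42, *Cemip* -0.64, *Rspo3* -0.36, *Gdf10* -0.54, *Ltbp2* -0.42 and *Lox* -1.17. Without cells with *Pecam1* above 1 the perivascular fibroblast median was -0.17 and that of complement -0.17, and *Lef1* was at 2.43, *Vegfc* 1.71, *Meox1* 0.80, *Rsad2* 0.14 and *Psmb9* 0.47. In endothelial-low cells the same 2 medians were -0.53 and -0.43, and *Slc40a1* was at 3.46, *Dll4* 1.22, *Pltp* 0.59, *Sfrp2* 4.09, *Lef1* 3.59, *Slc2a1* 0.19, *Cxcl12* 0.0377, *Igf1r* 0.0901, *Vegfc* 1.70, *Pde4c* 0.0663, *Irf9* 0.19, *Sema7a* 1.65, *Ddc* 0.53, *Meox1* 0.78, *Foxq1* 0.28, *Rsad2* 0.39, *Atp13a5* 0.45, *Psmb9* 3.22, *Slc22a8* 3.61 and *Slc1a1* 0.76. In endothelial-high cells *Itga8* was at 0.64, *Crabp2* -0.36, *Cemip* -0.29, *Rspo3* -0.0717, *Gdf10* -0.52, *Myocd* 0.14, *Ltbp2* -0.36 and *Lox* -0.28. Depth limits genes near 10 CPM, and 1 sample a group leaves no replicate check.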
